A study of Mus musculus with 80 samples.

Results

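A set of 9 genes of the urea cycle and of periportal nitrogen handling was followed across the livers of 80 mice. They were taken by gene symbol (Cps1, Otc, Nags, Slc25a15, Ass1, Asl, Arg1, Gls2 and Hal), and all 9 were found among the 14560 genes of the table. RNA was sequenced from livers of 8-week-old female mice on the C57BL/6J background that either lacked Adamts12, a secreted metalloproteinase of the extracellular matrix, or were wild type. Mice of each genotype had 1 intraperitoneal injection of carbon tetrachloride (CCl4, 0.3 ml per kg, at 3% by volume in olive oil) or of the olive oil vehicle alone, so every mouse received the oil. Livers were taken 4 h, 12 h, 24 h or 7 days later, and the labels give 5 mice for each of the 16 combinations of genotype, treatment and time. CCl4 is turned into a reactive radical by cytochrome P450 enzymes, chiefly Cyp2e1, in the hepatocytes around the central vein. Adamts12 is absent from the whole animal according to the genotype label, which names neither the deleted exons nor a cell type.

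The urea cycle turns ammonia into urea and runs chiefly in the hepatocytes around the portal vein. Ammonia enters in mitochondria, where Nags makes N-acetylglutamate, the activator of Cps1, Cps1 makes carbamoyl phosphate, and Otc joins it to ornithine to give citrulline. Slc25a15 carries ornithine into the mitochondrion and citrulline out. In the cytosol Ass1 joins citrulline to aspartate, Asl splits off arginine and fumarate, and Arg1 cleaves arginine into urea and ornithine. Gls2, the liver glutaminase, releases ammonia from glutamine, and Hal, histidine ammonia-lyase, releases it from histidine. Hepatocytes next to the central vein instead hold Glul, glutamine synthetase, which takes up the ammonia that escapes the cycle.

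On GRCm38 the members lie on several chromosomes, and each is annotated as protein coding. Cps1 spans chr1:67123026-67231259, Otc chrX:10252305-10321024, Ass1 chr2:31470207-31520672 and Asl chr5:130011258-130029247. Arg1 spans chr10:24915221-24927484, Gls2 chr10:128194457-128210004 and Hal chr10:93488768-93519304, all on chromosome 10, while Nags spans chr11:102145513-102149477 and Slc25a15 chr8:22375551-22398597. Gls2 and Nags each overlap 1 gene on the opposite strand (Spryd4 and Gm11586), and the strand setting of the counting is not given in the sources used here. Ass1 has a processed pseudogene, Gm5424 (chr10:62071123-62072362), whose group means were 85 to 853 normalized counts, and the division of reads between these copies is uncertain.

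RefSeq promoter windows on GRCm38.p6 matched 5 of the 9 members. The 250 bases before the start site are shown 5′ to 3′ on the gene strand for Otc and Hal, which were among the members that fell most, for Ass1, and for Nags, which did not pass the test at 12 h. Capitals mark matches on either strand to the TATA box motif (spelled TATAAA), the C/EBP core (spelled TTGCNNAA), the CCAAT box or the GC box (spelled GGGCGG). The half-sites of HNF4 (spelled CAAAGT), of the glucocorticoid receptor (spelled AGAACA) and of the cyclic AMP response element (spelled TGACG) were searched too and matched in none of these windows. The windows are chrX:10252055-10252304, chr10:93488518-93488767, chr2:31470020-31470269 and chr11:102145263-102145512, each on the plus strand, in the order listed. The Ass1 window ends inside the annotated gene, because the RefSeq start site lies downstream of the start of the gene annotation.
Otc: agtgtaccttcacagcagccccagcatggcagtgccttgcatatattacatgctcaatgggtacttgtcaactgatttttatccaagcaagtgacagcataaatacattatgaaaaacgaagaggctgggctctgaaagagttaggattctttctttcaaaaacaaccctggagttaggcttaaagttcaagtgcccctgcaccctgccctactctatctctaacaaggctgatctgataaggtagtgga
Hal: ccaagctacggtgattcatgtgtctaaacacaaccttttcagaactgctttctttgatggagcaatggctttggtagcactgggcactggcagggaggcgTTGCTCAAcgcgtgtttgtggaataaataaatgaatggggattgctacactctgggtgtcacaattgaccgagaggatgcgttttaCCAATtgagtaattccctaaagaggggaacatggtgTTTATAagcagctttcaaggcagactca
Ass1: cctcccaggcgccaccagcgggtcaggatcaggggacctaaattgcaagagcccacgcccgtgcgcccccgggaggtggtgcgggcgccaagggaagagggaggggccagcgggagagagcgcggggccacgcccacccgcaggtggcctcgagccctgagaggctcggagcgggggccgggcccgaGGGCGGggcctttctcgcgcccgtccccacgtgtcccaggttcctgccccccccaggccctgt
Nags: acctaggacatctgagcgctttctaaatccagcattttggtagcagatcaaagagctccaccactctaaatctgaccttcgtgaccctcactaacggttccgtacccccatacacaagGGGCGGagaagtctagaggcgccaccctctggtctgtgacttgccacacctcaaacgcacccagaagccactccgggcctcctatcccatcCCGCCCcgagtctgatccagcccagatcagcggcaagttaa

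The Otc window held none of the 7 motifs, and no 2 matches in the other windows overlapped. Hal held a TATAAA match on the minus strand from -28 to -23, a CCAAT from -64 to -60 and a TTGCNNAA from -150 to -143, counted from the start site. Ass1 held a GGGCGG from -63 to -58, and Nags held a pair of them, at -132 to -127 and at -41 to -36. Among 32851 promoter windows of that length 12.4% held TATAAA, 9.56% TTGCNNAA, 12.6% CAAAGT, 16.1% AGAACA, 17.8% TGACG, 32.7% GGGCGG and 33.8% CCAAT. A match describes the letters only.

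Libraries held 18.65 to 64.49 M reads, with a median of 32.745 M, and values are normalized counts, that is reads divided by a size factor per library. Adamts12 itself was low, with group means of 4.14 to 14.4 normalized counts in knockout livers and 15.1 to 58.1 in wild-type livers, the highest in wild-type CCl4 livers of 24 h, and reads from outside a deleted part would still be counted. Over the vehicle livers of the 4 times it differed by -1.43 ± 0.23 (adjusted p = 8.54e-05 by limma). At 12 h it was not called different between the genotypes: CCl4 livers had 14.4 ± 10.1 in knockout and 15.1 ± 3.16 in wild type (adjusted p = 0.855 by limma), and vehicle livers 11.4 ± 7.04 and 20.4 ± 6.05 in that order (adjusted p = 0.999 by limma; SD, n = 4 knockout and 5 wild-type livers). All 8 hepatocyte markers, such as Alb, were detected in each group. A pair of knockout libraries of 12 h stood with the other treatment and were left out. Over all genes the knockout CCl4 replicate 5 lay 1.11 (root mean square log2 difference) from the mean of the other CCl4 livers and 0.467 from that of the vehicle livers. The knockout vehicle replicate 1 lay 0.448 from the CCl4 mean and 1.19 from the vehicle mean. This left 78 libraries, with 4 knockout livers in each 12 h group and 5 in every other group. Library labels end in a number, and numbers under 7000 occurred in wild-type groups only. They were held by 2 CCl4 livers at 12 h, 4 vehicle livers at 24 h, and 4 CCl4 and 2 vehicle livers at 7 days. For most wild-type livers of 24 h, treatment and number series therefore cannot be told apart. Log2 differences are given ± SE from limma on log2(value + 1), with p-values adjusted by Benjamini-Hochberg over 14558 genes. A gene was called at an adjusted p under 0.05. In these bulk samples fewer cells of a type and less RNA per cell cannot be told apart.

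After CCl4 every member fell in both genotypes by 24 h, and none was called at 7 days. Called members were all lower: in knockout livers 3 of 9 at 4 h, 5 at 12 h and 9 at 24 h, and in wild-type livers 7 at 4 h, 8 at 12 h and 9 at 24 h. Over all genes, lower calls took 17.7% at 4 h, 23.1% at 12 h and 23% at 24 h in knockout livers, against 20.5%, 29.4% and 25% in wild-type livers. The median change of the members in knockout livers was -0.62 at 4 h, -0.96 at 12 h and -1.12 at 24 h. In wild-type livers it was -0.70 at 4 h, -1.30 at 12 h and -1.35 at 24 h, while the median of all genes stayed between -0.05 and 0.04 in these comparisons. The counts and medians at 12 h and 24 h depended on the scaling. With quantile normalization the members' median was -0.63 at 12 h and -0.81 at 24 h in knockout livers, and -0.89 and -0.83 in wild-type livers. With that scaling 2 members were called in knockout livers at 12 h, 4 in knockout livers at 24 h and 5 in wild-type livers at 24 h. The knockout count at 12 h was 0 with the pair of left-out libraries put back, and the wild-type count at 24 h was 3 without mice whose label number is under 7000, a step that keeps a single vehicle liver.

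**Figure D1:**
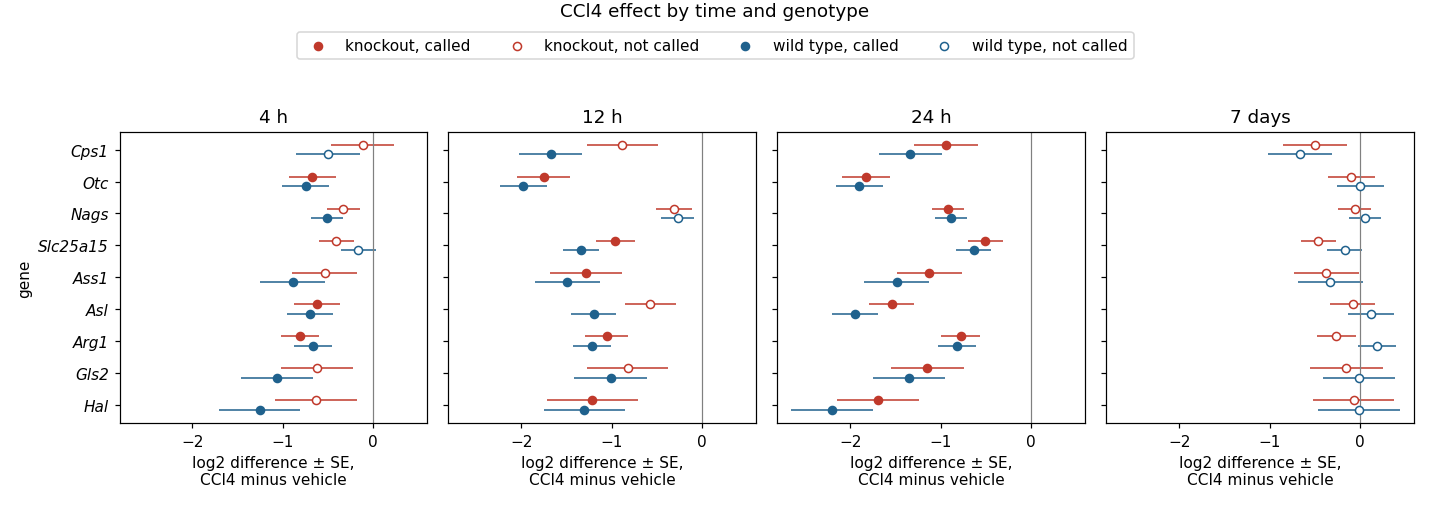
Log2 difference of CCl4 minus vehicle livers (x axis, ± SE) for the 9 members (y axis) at each time, in knockout (red) and wild-type (blue) livers, with filled points for an adjusted p under 0.05. All 9 members are filled in both genotypes at 24 h, where the knockout median is -1.12 and the wild-type median is -1.35, and none is filled at 7 days.

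Values of CCl4 and vehicle livers separated for only some of the members. Those members were all lower after CCl4, while the shares of all genes beside them count both directions. In knockout livers there was no overlap for 2 members at 4 h, 1 at 12 h, 4 at 24 h and 0 at 7 days, and groups did not overlap for 30.6%, 36.2%, 22.6% and 3.03% of all genes at those times. In wild-type livers it was 3 members at 4 h, 3 at 12 h, 5 at 24 h and 0 at 7 days, against 34.6%, 37.9%, 30.3% and 3.89% of all genes. Otc, Asl, Nags and Slc25a15 were separated at 24 h in both genotypes, and Cps1 in wild-type livers.

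Several calls rested on the libraries and the scaling used. With the left-out pair put back, no member was called at 12 h in knockout livers, where values ranged from -0.89 for Otc (adjusted p = 0.0559 by limma) to -0.08 for Nags (adjusted p = 0.791 by limma). Ass1 was then -0.83, Hal -0.61, Arg1 -0.50 and Slc25a15 -0.45. Quantile normalization ended the 12 h calls of Ass1 (-0.69), Arg1 (-0.30) and Hal (-0.96) in knockout livers and of Cps1 (-0.84) and Gls2 (-0.93) in wild-type livers. At 24 h it ended those of Cps1, Ass1, Arg1 and Slc25a15 in both genotypes and of Gls2 (-0.91) in knockout livers. Otc, Asl, Nags and Hal remained called at 24 h in both genotypes under this scaling.

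**Figure D2:**
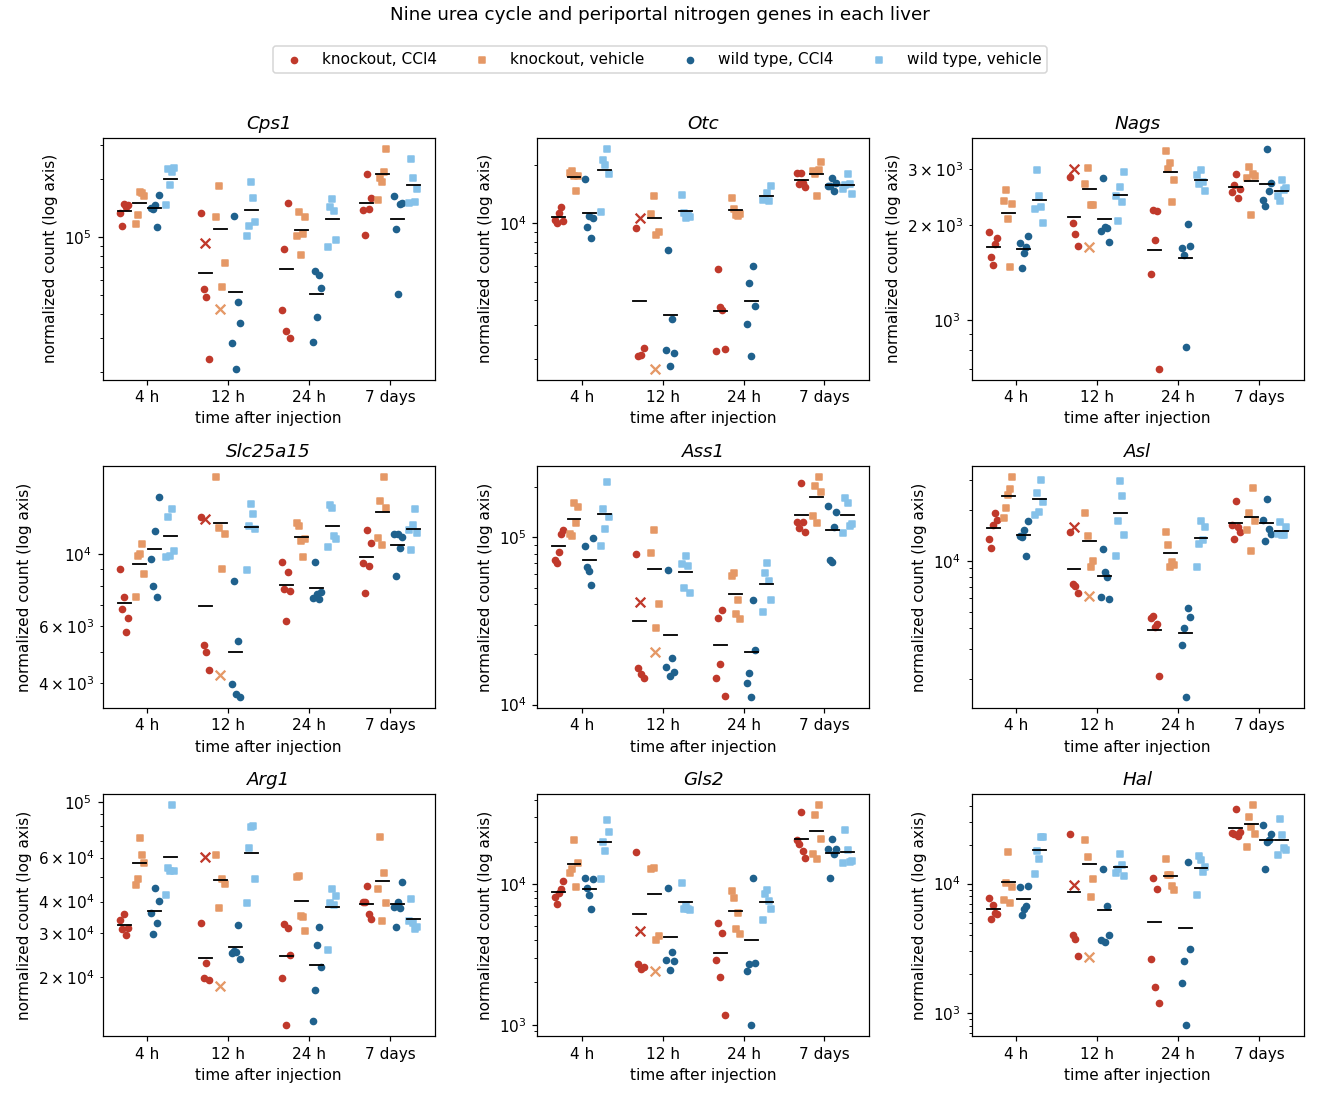
Normalized counts of each member in each liver (y axis, log scale) by time after injection (x axis), with circles for CCl4 livers, squares for vehicle livers, black bars for group means, and crosses for the 2 knockout libraries left out. Otc at 24 h reaches at most 6033 normalized counts in CCl4 livers and at least 10837 in vehicle livers.

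Among the mitochondrial members, Otc, which makes citrulline, was called lower at 4 h, 12 h and 24 h in both genotypes. At 24 h knockout livers had 2192, 2257, 3579, 3708 and 5825 normalized counts after CCl4, against 10837, 11022, 11212, 11899 and 13502 after vehicle. Wild-type livers had 2072, 3011, 3768, 4894 and 6033 after CCl4, against 12951, 13183, 13308, 14384 and 15489.9 after vehicle. Every CCl4 liver was below every vehicle liver, and the CCl4 mean was 30.0% of the vehicle mean in knockout livers and 28.5% in wild-type livers. The log2 difference was -1.83 ± 0.26 (adjusted p = 4.69e-08) in knockout and -1.90 ± 0.26 (adjusted p = 1.01e-08) in wild-type livers. At 12 h it was -1.75 ± 0.29 (adjusted p = 9.42e-07) in knockout livers and -1.98 ± 0.26 (adjusted p = 1.61e-09) in wild-type livers. The knockout CCl4 livers at 12 h were unlike each other, with 2064, 2096, 2283 and 9415, against 8664, 9023, 11205 and 13739.6 in vehicle livers. Replicate 1 stood inside the vehicle range and the other 3 far below it. In wild-type livers of 12 h the values were 1837, 2151, 2229, 3208 and 7312 after CCl4 and 10628, 10736, 11013, 11270.3 and 13951 after vehicle, without overlap. With the left-out pair put back, the knockout value at 12 h was -0.89 (adjusted p = 0.0559 by limma).

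Cps1, the entry enzyme of the cycle, fell in both genotypes at 24 h, and in wild-type livers also at 12 h. Knockout livers of 24 h had 29917, 32843, 42175, 86782 and 150940 after CCl4, against 80557, 101083, 103287, 127161 and 134530 after vehicle. CCl4 replicate 4 was above all 5 vehicle livers. Wild-type livers of 24 h had 28808, 38643, 54754, 63636 and 66894 after CCl4, against 88474, 97112, 136771, 143959 and 156567 after vehicle, and these did not overlap. The change was -0.95 ± 0.35 (adjusted p = 0.0244) in knockout livers and -1.33 ± 0.35 (adjusted p = 0.00115) in wild-type livers. The knockout value went to 0.00 under quantile normalization, with adjusted p = 0.996 by limma. At 12 h Cps1 differed by -0.88 ± 0.39 (adjusted p = 0.0587) in knockout livers, which did not pass, and by -1.68 ± 0.35 (adjusted p = 4.33e-05) in wild-type livers. Wild-type livers of 12 h had 20868, 28228, 36112, 46112 and 128738 after CCl4 and 100909, 113485, 120206, 159268 and 193018 after vehicle, where replicate 2 alone of the CCl4 livers reached the vehicle range. At 4 h the difference was -0.12 ± 0.35 (adjusted p = 0.831) in knockout and -0.50 ± 0.35 (adjusted p = 0.261) in wild-type livers, so Cps1 was not called at that time in either genotype.

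Nags, which makes the activator of Cps1, was called at 24 h in both genotypes and at 12 h in neither. Knockout livers of 24 h had 700, 1400.5, 1796, 2223 and 2235 after CCl4 and 2358, 2784, 3001, 3141 and 3438 after vehicle. Wild-type livers had 819, 1604, 1688, 1713 and 2011 after CCl4 and 2555, 2698, 2739.7, 2891 and 2999 after vehicle. The groups did not overlap in either genotype, and a single CCl4 liver in each, replicate 5 in knockout and replicate 3 in wild type, was far below the rest. The 24 h change was -0.92 ± 0.18 (adjusted p = 2.56e-05) in knockout livers and -0.88 ± 0.18 (adjusted p = 3.37e-05) in wild-type livers. At 12 h the difference was -0.31 ± 0.20 (adjusted p = 0.204) in knockout and -0.27 ± 0.18 (adjusted p = 0.190) in wild-type livers. CCl4 means at 12 h were 81.7% of the vehicle mean in knockout livers and 83.4% in wild-type livers. At 4 h Nags differed by -0.33 ± 0.18 (adjusted p = 0.143) in knockout livers and fell by 0.51 ± 0.18 (adjusted p = 0.0164) on the log2 scale in wild-type livers.

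Slc25a15, the ornithine carrier, had its larger difference at 12 h and a smaller one at 24 h. At 12 h knockout livers had 4391, 4986, 5266 and 13069 after CCl4, against 9019, 11528, 12053 and 17312 after vehicle. Wild-type livers of 12 h had 3638, 3706, 3976, 5420 and 8261 after CCl4, against 8974, 11980.1, 12255, 13294 and 14278 after vehicle. Replicate 1 of the knockout CCl4 livers was again inside the vehicle range, and in wild type the groups did not overlap. The 12 h change was -0.96 ± 0.22 (adjusted p = 0.000182) in knockout and -1.34 ± 0.19 (adjusted p = 2.05e-08) in wild-type livers. At 24 h it was -0.51 ± 0.19 (adjusted p = 0.0273) in knockout livers and -0.64 ± 0.19 (adjusted p = 0.00460) in wild-type livers. Means at 24 h were 8020.4 ± 1226 after CCl4 and 11348 ± 1086 after vehicle in knockout livers, and 7856 ± 919 and 12246 ± 1703 in wild-type livers in the same order (SD, n = 5 each). Neither 24 h call held under quantile normalization, which gave -0.09 in knockout (adjusted p = 0.719 by limma) and -0.22 in wild-type livers (adjusted p = 0.330 by limma).

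Of the cytosolic members, Asl, the lyase that releases arginine, was lowest at 24 h. Knockout livers of 24 h had 2066, 4033, 4195, 4556 and 4678 after CCl4 and 9215, 9409.5, 9854, 12419 and 14819 after vehicle. In wild type the values were 1566, 3175, 3992, 4654 and 5253 after CCl4 and 9209.8, 12597, 13192, 15788 and 17227 after vehicle. Neither genotype showed overlap, and CCl4 means were 35.0% of the vehicle mean in knockout and 27.4% in wild-type livers. The change at 24 h was -1.54 ± 0.25 (adjusted p = 9.66e-07) in knockout and -1.95 ± 0.25 (adjusted p = 2.40e-09) in wild-type livers. At 12 h Asl averaged 8925 ± 3963 after CCl4 and 13075 ± 4625 after vehicle in knockout livers (SD, n = 4 each), a difference of -0.57 ± 0.28 (adjusted p = 0.0875) that did not pass. Wild-type livers of 12 h averaged 8069.7 ± 2331 after CCl4 and 19192 ± 7651 after vehicle (SD, n = 5 each), a log2 difference of -1.20 ± 0.25 (adjusted p = 4.24e-05).

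Ass1, which builds argininosuccinate, was called lower at 12 h and 24 h in both genotypes with wide spread between livers. At 12 h knockout livers had 14511, 15205, 16473 and 79382 after CCl4, against 28802, 39665, 80248 and 110962 after vehicle. The 3 low CCl4 livers lay close together and replicate 1 stood near the higher vehicle livers, while the vehicle livers fell into a higher and a lower pair. Wild-type livers of 12 h had 14894, 15741, 16748, 18900.1 and 64034 after CCl4, against 46480.1, 50064, 67566, 69289 and 76822 after vehicle, where replicate 2 was the only CCl4 liver inside the vehicle range. The change was -1.28 ± 0.40 (adjusted p = 0.00640) in knockout and -1.49 ± 0.36 (adjusted p = 0.000306) in wild-type livers. At 24 h it was -1.12 ± 0.36 (adjusted p = 0.00836) in knockout and -1.49 ± 0.36 (adjusted p = 0.000407) in wild-type livers, and the groups overlapped in both. Quantile normalization ended both 24 h calls, with -0.35 in knockout (adjusted p = 0.468 by limma) and -0.80 in wild-type livers (adjusted p = 0.0625 by limma).

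Arg1, the last enzyme of the cycle and also made by some macrophages, was called lower at 4 h, 12 h and 24 h in both genotypes. At 12 h knockout livers had 19419, 19801, 22762 and 32699.9 after CCl4, against 37588, 47214, 49398 and 61257 after vehicle. Wild-type livers of 12 h had 23485, 24856, 25129, 25377 and 32134 after CCl4, against 39375, 49068, 65616, 79815 and 80254 after vehicle. The groups did not overlap in either genotype, and Arg1 was the only member separated at 12 h in knockout livers. The change was -1.06 ± 0.24 (adjusted p = 0.000180) in knockout and -1.22 ± 0.21 (adjusted p = 1.56e-06) in wild-type livers. At 24 h it was -0.78 ± 0.21 (adjusted p = 0.00205) in knockout and -0.82 ± 0.21 (adjusted p = 0.000980) in wild-type livers, with overlap in both. Under quantile normalization the 24 h value was -0.04 in knockout (adjusted p = 0.907 by limma) and -0.13 in wild-type livers (adjusted p = 0.634 by limma). The summed level of the 3 detected markers of alternatively activated macrophages at 24 h was 817 to 1739 after CCl4 and 518 to 2014 after vehicle in knockout livers. In wild-type livers it was 1086 to 1951 after CCl4 and 1744 to 2690 after vehicle. The sum hides that the 3 markers went different ways at 24 h. Chil3 changed by 4.70 ± 0.82 in knockout and 2.77 ± 0.82 in wild-type livers (adjusted p = 3.41e-06 and 0.0035 by limma). Mrc1 changed by -0.25 ± 0.35 and -1.22 ± 0.35 in that order (adjusted p = 0.585 and 0.00251 by limma). Clec10a changed by 0.94 ± 0.51 and -0.40 ± 0.51 (adjusted p = 0.134 and 0.531 by limma). The part of such cells in the Arg1 values was not tested.

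The ammonia-releasing enzymes Gls2 and Hal fell at 24 h in both genotypes. For Hal the 24 h knockout values were 1201, 1601, 2628, 9018 and 11010.3 after CCl4 and 8901, 9549, 11573, 11679 and 15508 after vehicle. The wild-type values were 814, 1707, 2553, 3133 and 14635 after CCl4 and 8170, 12196, 13549, 15215 and 16398 after vehicle. Replicates 2 and 4 of the knockout CCl4 livers and replicate 4 of the wild-type CCl4 livers lay within the vehicle range, and the other CCl4 livers lay far below it. The change was -1.69 ± 0.45 (adjusted p = 0.00155) in knockout and -2.20 ± 0.45 (adjusted p = 3.72e-05) in wild-type livers. At 12 h it was -1.22 ± 0.50 (adjusted p = 0.0409) in knockout and -1.30 ± 0.45 (adjusted p = 0.0107) in wild-type livers. Gls2 at 24 h had 1176, 2182, 2897, 4484 and 5333 after CCl4 and 4407, 4817, 6287, 7975 and 8901 after vehicle in knockout livers. In wild-type livers it had 997, 2431, 2708, 2765 and 11129 after CCl4 and 5543, 6698, 7611, 8555 and 9017 after vehicle. The same wild-type replicate 4 was above every vehicle liver. Gls2 changed by -1.15 ± 0.40 (adjusted p = 0.0159) in knockout and by -1.35 ± 0.40 (adjusted p = 0.00361) in wild-type livers. At 12 h Gls2 differed by -0.83 ± 0.45 (adjusted p = 0.124) in knockout livers, which did not pass, and fell by 1.01 ± 0.40 (adjusted p = 0.0257) on the log2 scale in wild-type livers.

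At 4 h the median change of the members was smaller than at 12 h and 24 h in both genotypes, but this did not hold for every member. In wild-type livers Gls2 changed by -1.06 at 4 h and -1.01 at 12 h, and Nags by -0.51 and -0.27. In knockout livers Asl changed by -0.62 at 4 h and -0.57 at 12 h, and Nags by -0.33 and -0.31. Knockout Arg1 changed by -0.81 at 4 h and -0.78 at 24 h. Arg1 fell in both genotypes, to 32279.5 ± 2454 after CCl4 against 57185 ± 9923 after vehicle in knockout livers, and to 36781 ± 6172 against 60067 ± 21281 in wild-type livers (SD, n = 5 each). Its 4 h change was -0.81 ± 0.21 (adjusted p = 0.00152) in knockout and -0.66 ± 0.21 (adjusted p = 0.00834) in wild-type livers. Otc, at -0.67 ± 0.26 (adjusted p = 0.0332) in knockout and -0.75 ± 0.26 (adjusted p = 0.0154) in wild-type livers, and Asl, at -0.62 ± 0.25 (adjusted p = 0.0445) and -0.70 ± 0.25 (adjusted p = 0.0195), were also called in both. Hal, Gls2, Ass1 and Nags were called in wild-type livers alone at 4 h, and the difference between the genotypes was itself not called for any of them. The wild-type Hal values were 5728, 6409, 6683, 9359.7 and 9552 after CCl4 and 11776, 15492, 17873, 22794 and 23056 after vehicle, without overlap, a change of -1.26 ± 0.45 (adjusted p = 0.0183). The 4 h counts moved with single libraries: without wild-type vehicle replicate 4, which held the highest Arg1, Gls2 and Ass1 of its group, 2 members were called in wild type, and without CCl4 replicate 4, 3. In knockout livers 1 member was called without CCl4 replicate 2, vehicle replicate 3 or vehicle replicate 5, and 7 when only the groups compared were fitted.

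At 7 days 0 of 9 members were called in either genotype by limma, while 0.694% of all genes in knockout and 0.055% in wild-type livers were. The unadjusted p was under 0.05 for 1 member in knockout livers, Slc25a15 at -0.46 ± 0.19 (adjusted p = 0.274), and for 0 in wild-type livers. Members differed by -0.50 to -0.06 in knockout and by -0.67 to 0.19 in wild-type livers. Cps1 held the lowest value in both, -0.50 ± 0.35 (95% interval -1.20 to 0.21) in knockout and -0.67 ± 0.35 (95% interval -1.37 to 0.04) in wild-type livers. Wild-type CCl4 replicate 3 had 50594 normalized counts of Cps1, against at least 110759 in the other wild-type CCl4 livers. That liver was highest of its group for 4 members, and without it the wild-type Cps1 difference was -0.37. Otc at 7 days averaged 16695 ± 1273 after CCl4 and 17956 ± 2505 after vehicle in knockout livers, and 15744 ± 889 after CCl4 and 15724 ± 1391 after vehicle in wild-type livers (SD, n = 5 each). Its 95% interval for the difference was -0.62 to 0.42 in knockout and -0.52 to 0.52 in wild-type livers.

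The CCl4 effect varied between the 4 times for some members and not detectably for others. In knockout livers 3 members passed the F test of limma (Otc, Asl and Nags), where 51.7% of all genes did, and in wild-type livers 6 passed (Otc, Asl, Arg1, Nags, Hal and Slc25a15), where 62.9% did. Cps1, Ass1 and Gls2 passed in neither genotype, with adjusted p of 0.406, 0.316 and 0.432 in knockout and 0.0985, 0.107 and 0.140 in wild-type livers by limma. Between 12 h and 24 h the members went different ways. The effect on Asl was -0.97 ± 0.38 at 24 h minus 12 h in knockout and -0.75 ± 0.36 in wild-type livers, and that on Nags was -0.61 ± 0.27 and -0.61 ± 0.25. Slc25a15 moved the other way, by 0.45 ± 0.29 in knockout and 0.70 ± 0.27 in wild-type livers. None of these passed the adjusted test: 0 of 9 members were called in either genotype, against 5.06% of all genes in knockout and 12.6% in wild-type livers, and the unadjusted limma p was under 0.05 for 2 members in knockout and 3 in wild-type livers. The smallest adjusted p by limma was 0.125 for Asl in knockout and 0.0765 for Slc25a15 in wild-type livers. The count became 1 in knockout livers without CCl4 12 h replicate 1, and 1 in wild-type livers without CCl4 12 h replicate 2 or vehicle 12 h replicate 1. Leaving out knockout CCl4 12 h replicate 1 also raised the knockout F test count to 6.

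Single livers carried the members together. At 12 h knockout CCl4 replicate 1 had the highest value of its group for 9 of 9 members, and wild-type CCl4 replicate 2 for 8 of 9, all but Arg1. The knockout liver had 24206 normalized counts of Hal, 16824 of Gls2 and 79382 of Ass1. The other 3 knockout CCl4 livers had at most 4052 of Hal, 2711 of Gls2 and 16473 of Ass1. The deviation of replicate 1 was not limited to the members. Over all genes replicate 1 lay 0.748 (root mean square log2 difference) from the mean of other CCl4 livers and 0.913 from the vehicle mean. The other 3 lay 0.389 to 0.563 and 1.129 to 1.196 away, in that order. The Alb of replicate 1 was 2502970, against at most 1475380 in the other 3 and at least 2554130 in the vehicle livers kept. In knockout CCl4 replicate 1 the pericentral genes were far under the vehicle livers. Glul was 2229.5, the lowest of the 4 CCl4 livers, against a vehicle mean of 36572 ± 14873 (SD, n = 4). Cyp2e1 was 22467, against 150417 ± 20665 in vehicle livers (SD, n = 4). Oat was 3184, the highest of the 4 CCl4 livers, against at least 14938 in the vehicle livers kept. The wild-type liver had a label number under 7000, as did CCl4 replicate 1 of its group. Wild-type CCl4 replicate 2 had 64034 of Ass1 and 9448 of Gls2, both within the vehicle range. Its Glul was 5019 and its Cyp2e1 37224, against 48696 ± 7055 and 183991 ± 18780 in wild-type vehicle livers (SD, n = 5). Its Oat was 3968 and its Alb 2381930, each the highest of the 5 CCl4 livers. Wild-type vehicle livers had at least 20186.5 of Oat and 2312120 of Alb. Without knockout CCl4 replicate 1, 8 of 9 members were called lower at 12 h in knockout livers, and Otc changed by -2.29. Without knockout vehicle replicate 3, the knockout count at 12 h was 3. Without wild-type CCl4 replicate 2 the wild-type count stayed at 8.

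At 24 h wild-type CCl4 replicate 4 was highest of its group for 7 of 9 members, with 14635 of Hal and 11129 of Gls2, while its Cyp2e1 was the lowest of its group at 10659.8. Alb was also highest of the group in replicate 4, at 2112920. Replicate 3 was lowest for 6 of 9 members and had 814 of Hal. Wild-type counts stayed at 9 whichever single library was left out. In knockout livers of 24 h the count was 6 without CCl4 replicate 5, whose Hal was 1201 and whose Nags was 700, both the lowest of the group.

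**Figure D3:**
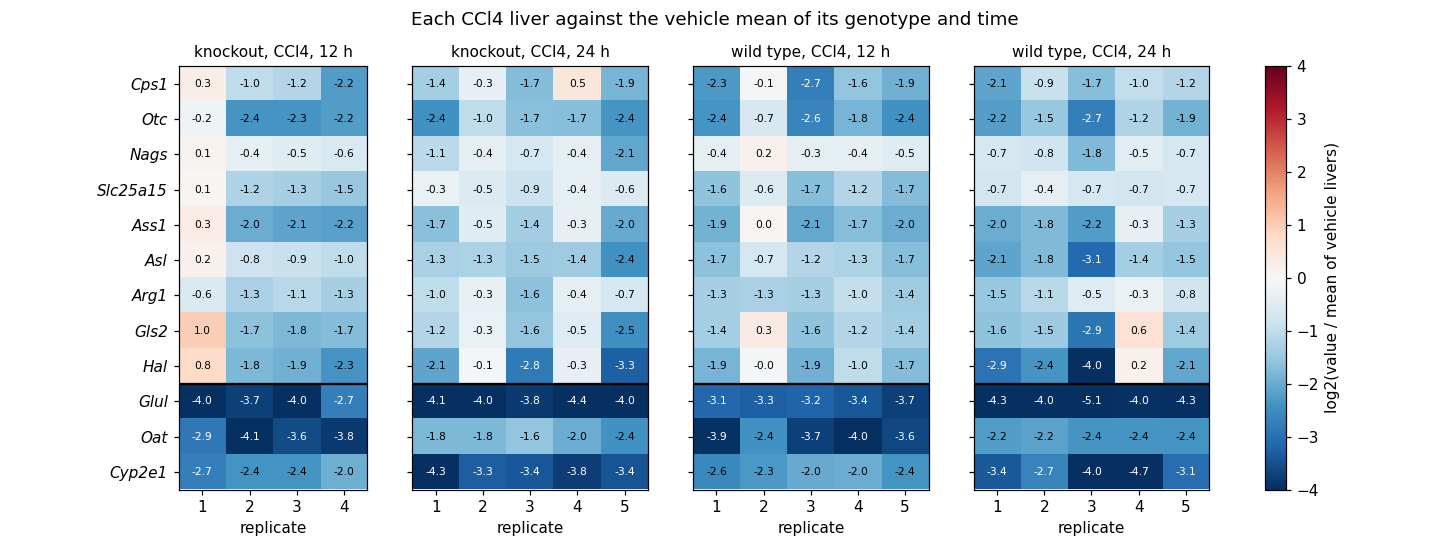
Log2 ratio of each CCl4 liver (columns, by replicate) to the mean of the vehicle livers of its genotype and time, for the 9 members (above the line) and the pericentral genes Glul, Oat and Cyp2e1 (below it), from blue (lower) to red (higher). At 12 h knockout replicate 1 and wild-type replicate 2 are pale or red for most members and blue for all 3 pericentral genes, as is wild-type replicate 4 at 24 h for Gls2 and Hal.

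No member was called different between knockout and wild-type livers. The CCl4 effect in knockout minus that in wild-type livers ranged from -0.25 to 0.62 at 4 h, from -0.04 to 0.79 at 12 h, from -0.04 to 0.51 at 24 h and from -0.45 to 0.17 at 7 days. By limma 0 of 9 members were called at any of these times, also at an unadjusted p under 0.05, and over all genes the share called was 0.00687%, 0%, 0% and 0.00687%. The F test of the interaction over the 4 times called 0 members and 0.0137% of all genes. The widest of the 95% intervals belonged to Hal, -1.26 to 1.43 at 12 h and -0.76 to 1.78 at 24 h, and the interval of Otc was -0.55 to 1.01 and -0.66 to 0.81 at those times. Among vehicle livers over the 4 times, knockout minus wild type ranged from -0.21 to 0.04, with 0 members and 0.282% of all genes called. The interval was -0.16 to 0.20 for Nags and -0.62 to 0.29 for Hal. Within single times 0 members were called between the genotypes among CCl4 livers or among vehicle livers, where the share of all genes called at 4 h, 12 h, 24 h and 7 days was 0.584%, 0.0206%, 0.0137% and 0% among CCl4 livers and 0.343%, 0%, 0% and 0.055% among vehicle livers. The unadjusted limma p was under 0.05 for 1 member among CCl4 livers at 4 h and for 1 among vehicle livers at 7 days.

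Some members also varied between the times among vehicle livers, and in wild-type livers their share was near that of all genes. In knockout livers 6 of 9 passed the F test of limma (Cps1, Otc, Ass1, Asl, Gls2 and Hal), as did 41.7% of all genes, and in wild-type livers 4 did (Ass1, Asl, Arg1 and Gls2), as did 38.9%. The wild-type count was 7 when only the groups compared were fitted. Ass1 in knockout vehicle livers averaged 127874 ± 26997 at 4 h, 64919 ± 37847 at 12 h, 45829 ± 13312 at 24 h and 174937 ± 45563 at 7 days (SD, n = 5, 4, 5 and 5, adjusted p = 1.74e-05 by limma). In wild-type vehicle livers it averaged 138536 ± 46920.4, 62044 ± 13106, 52844 ± 13869.6 and 135306 ± 29458 at those times (SD, n = 5 each, adjusted p = 0.000838 by limma). Both genotypes had their lower Ass1 at 12 h and 24 h. Gls2 was also lower at these times in wild-type vehicle livers, with 20047 ± 6743 at 4 h, 7461 ± 1587 at 12 h, 7485 ± 1405 at 24 h and 16973 ± 4347 at 7 days (SD, n = 5 each, adjusted p = 0.00267 by limma). Hal in knockout vehicle livers averaged 10294 ± 4211 at 4 h and 28650.2 ± 8089 at 7 days (SD, n = 5 each, adjusted p over the 4 times = 0.0196 by limma). Arg1 in wild-type vehicle livers was 60067 ± 21281 at 4 h and 34017 ± 3962 at 7 days (SD, n = 5 each, adjusted p over the 4 times = 0.000946 by limma). Nags and Slc25a15 passed in neither genotype with all groups fitted. The labels do not give the hour of the day at which livers were taken, and time after injection cannot be told apart from it.

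**Figure D4:**
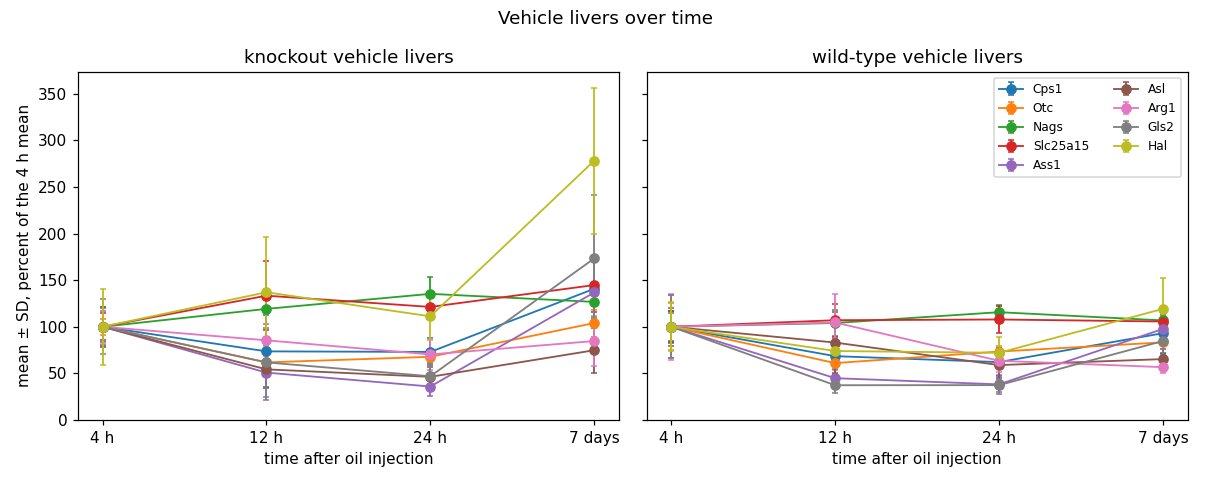
Mean ± SD of each member in vehicle livers, as percent of its 4 h mean (y axis), at each time after the oil injection (x axis), in knockout (left) and wild-type (right) livers, with 4 to 5 livers a point. Ass1 and Gls2 are low at 12 h and 24 h in both genotypes, and Hal and Gls2 are highest at 7 days in knockout livers.

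Among the 16 group means, the lowest were those of CCl4 livers at 12 h or 24 h for each of 4 members shown here. Otc was lowest in wild-type CCl4 livers at 12 h (3347 ± 2275) and in knockout CCl4 livers at 24 h (3512 ± 1476), and highest in wild-type vehicle livers at 4 h (18892 ± 4755) and in knockout vehicle livers at 7 days (17956 ± 2505) (mean ± SD). Ass1 was lowest in wild-type CCl4 livers at 24 h (20721 ± 12707) and in knockout CCl4 livers at 24 h (22579.8 ± 11455), and highest in knockout vehicle livers at 7 days (174937 ± 45563) and in wild-type vehicle livers at 4 h (138536 ± 46920.4). Hal was lowest in wild-type CCl4 livers at 24 h (4569 ± 5695) and in knockout CCl4 livers at 24 h (5092 ± 4578), and highest in knockout vehicle livers at 7 days (28650.2 ± 8089) and in knockout CCl4 livers at 7 days (26871 ± 5914). Nags was lowest in wild-type CCl4 livers at 24 h (1567 ± 446) and in knockout CCl4 livers at 24 h (1671 ± 643), and highest in knockout vehicle livers at 24 h (2944 ± 405) and in wild-type vehicle livers at 24 h (2777 ± 173). In each of these pairs the neighbouring means differed by less than the larger of their SDs.

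Within groups most pairs of members were correlated. Over 78 livers, each taken as its log2 deviation from its group mean, 35 of the 36 pairs of members were positively correlated at an adjusted p under 0.05 in a two-sided permutation test within groups. The lowest r of these 35 was 0.284, and 11.9% of all pairs of tested genes had an r at least as high. The median r was 0.611 over the pairs of members and -0.003 over all pairs of genes. Ass1 and Gls2 had Pearson's r = 0.903 (adjusted permutation p = 1.89e-05) and Spearman's rho = 0.883 (adjusted permutation p = 1.71e-05). Gls2 and Hal had Pearson's r = 0.903 (adjusted permutation p = 1.89e-05) and Spearman's rho = 0.844 (adjusted permutation p = 1.71e-05). These p-values are near the smallest that 100000 permutations give. Leaving out the 2 livers farthest from the median for the first gene named of each pair left r at 0.874 and 0.861. Arg1 and Nags were the exception, with Pearson's r = 0.094 (adjusted permutation p = 0.600) and Spearman's rho = 0.117 (adjusted permutation p = 0.377). Their r was 0.148 without the 2 livers farthest for Arg1. Livers share the scaling of their library, and its part in these values was not tested.

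Across the 16 group means the genes of most similar pattern were found among 10316 genes with a mean of at least 100 normalized counts, by Pearson's r as a description. Otc was nearest to Maob (r = 0.993), Iah1 (0.991) and Bphl (0.991), and Cps1 to Ugt2a3 (0.971), Acss3 (0.968) and Maob (0.966). Ass1 was nearest to its pseudogene Gm5424 (0.995), then Gstt3 (0.982) and Gls2 (0.981). Gls2 was nearest to Ass1 (0.981), Rdm1 (0.978) and Gm5424 (0.973). Hal was nearest to 2610528J11Rik (0.968), Amdhd1 (0.965), the imidazolonepropionase of the histidine pathway that Hal opens, and Tatdn3 (0.958). Asl was nearest to Ahcy (0.947), Sds (0.946) and Mpv17l (0.939), and Arg1 to Ciao1 (0.964), Rbks (0.964) and Acp1 (0.938). Nags was nearest to Ninj1 (0.967), Hlcs (0.942) and Cyb5d2 (0.940), and Slc25a15 to Ggcx (0.945), Lamp2 (0.945) and Acnat1 (0.939).

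Other genes of ammonia, glutamine, ornithine and proline metabolism changed in both directions. At 12 h 13 of 21 fell and 5 rose in knockout livers, and the same counts were found in wild-type livers. At 24 h 12 fell and 6 rose in knockout livers, and 12 fell and 5 rose in wild-type livers. Over all genes higher calls took 23.6% at 12 h and 21.1% at 24 h in knockout livers, and 29% and 26.2% in wild-type livers. At 24 h Glul changed by -4.05 ± 0.29 in knockout and -4.34 ± 0.29 in wild-type livers (adjusted p = 5.77e-18 and 2.39e-19 by limma). Slc1a2, a glutamate transporter of pericentral hepatocytes, changed by -5.65 ± 0.33 in knockout and -5.70 ± 0.33 in wild-type livers. Slc25a13, the aspartate-glutamate carrier that feeds Ass1, changed by -1.35 ± 0.18 and -1.74 ± 0.18 in that order. Odc1, which turns ornithine into putrescine, changed by 1.97 ± 0.18 and 1.91 ± 0.18 at 24 h. Aldh18a1, which opens proline synthesis from glutamate, changed by 3.75 ± 0.36 and 3.96 ± 0.32 at 12 h. At 7 days Oat, ornithine aminotransferase, was the only gene of the list called, in knockout livers, at -1.32 ± 0.25 (adjusted p = 0.00558 by limma), and in wild-type livers it was -0.83 ± 0.25 (adjusted p = 0.0941 by limma).

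Enzymes of amino acid breakdown, which deliver nitrogen to the cycle, fell in nearly all cases. In knockout livers 24 of 28 were lower at 12 h and 26 at 24 h, and in wild-type livers 25 and 26, with 0 higher in each. Medians at 24 h were -1.51 in knockout and -1.70 in wild-type livers. Agxt2 changed by -2.10 ± 0.22 in knockout and -2.22 ± 0.22 in wild-type livers at 24 h, Hpd, of tyrosine breakdown, by -2.27 ± 0.29 and -2.33 ± 0.29, and Fah, its last step, by -1.91 ± 0.22 and -1.88 ± 0.22. Amino acid carriers were mixed: at 12 h 4 of 11 fell and 3 rose in knockout livers, and 6 fell and 3 rose in wild-type livers. The heavy chain Slc3a2 and its partner Slc7a5 rose, by 1.78 ± 0.23 and 3.25 ± 0.28 in knockout and by 2.01 ± 0.20 and 3.10 ± 0.25 in wild-type livers. Slc38a3, a glutamine transporter, changed by -1.63 ± 0.26 in knockout and -1.75 ± 0.23 in wild-type livers.

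Other periportal genes were mixed. At 24 h 6 of 16 were lower and 2 higher in knockout livers, and 8 lower and 1 higher in wild-type livers, with medians of -0.45 and -0.62. Pigr changed by -1.40 ± 0.21 in knockout and -1.52 ± 0.21 in wild-type livers, Fbp1, of gluconeogenesis, by -1.25 ± 0.25 and -1.39 ± 0.25, and Gpc1 by 2.15 ± 0.38 and 1.37 ± 0.38. Pericentral genes were lower in 13 of 16 cases in knockout and 12 in wild-type livers at 24 h, with medians of -1.28 and -1.30. Cyp2e1, which activates CCl4, changed by -3.63 ± 0.24 in knockout and -3.55 ± 0.24 in wild-type livers. Known regulators of the cycle's genes were lower in 9 of 13 cases at 12 h in both genotypes. Hnf4a, a hepatocyte transcription factor, changed by -1.34 ± 0.16 in knockout and -1.35 ± 0.15 in wild-type livers at 12 h. Cebpa, another, changed by -1.40 ± 0.25 and -1.10 ± 0.22, and Atf4, of the amino acid response, by 1.08 ± 0.22 and 1.59 ± 0.20. The glucagon receptor Gcgr changed by -1.36 ± 0.21 in knockout and -1.63 ± 0.21 in wild-type livers at 24 h.

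General hepatocyte markers moved with the members at 12 h. Lower calls were made for 8 of 8 at 12 h in both genotypes, with medians of -1.03 in knockout and -1.26 in wild-type livers. At 24 h 4 of 8 were lower in knockout and 3 in wild-type livers, with medians of -0.57 and -0.52, and their part in the members' changes was not tested. Macrophage and monocyte markers rose at 24 h, 5 of 7 in knockout and 3 of 7 in wild-type livers, where 1 fell. Their summed level at 24 h ranged from 7023 to 13642 normalized counts after CCl4 and from 2196 to 7889 after vehicle in knockout livers. In wild-type livers it ranged from 10503 to 26393 after CCl4 and from 7656 to 13890 after vehicle. The sum hides different directions: wild-type Csf1r averaged 1863 ± 509 after CCl4 and 3517 ± 828 after vehicle (SD, n = 5 each). Among Kupffer (liver macrophage) markers at 24 h, Clec4f changed by -1.21 ± 0.33 in knockout and -1.51 ± 0.33 in wild-type livers. Vsig4 changed by -0.99 ± 0.32 and -1.47 ± 0.32 in that order, and Marco by 2.02 ± 0.57 and 1.27 ± 0.57 (not called). Timd4 and Cd5l were not called. The part of these cells in the members' changes was not tested.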

How the data were processed

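Livers of 80 mice were profiled by stranded mRNA sequencing from 500 ng of total RNA, with library order randomized, per the labels' protocols. The deposited signal values are read counts that the authors divided by a size factor per library; STAR, HTSeq, DESeq2 and GRCm38 are named per the submitters' processing notes, and versions and the strand setting are not given in the sources used here. Values are whole multiples of their library's step (within 0.01), from which depth was read (18.65 to 64.49 M reads), and 3 reads are worth at most 6.02 normalized counts. Intervals are for the difference between group means and are drawn from the variation between livers. They are not ranges of single livers.

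Because the values are scaled, limma 3.58.1 (R 4.3.3) was fitted to log2(value + 1) in place of a count test, so fold changes of low genes are understated. Genes needed at least 10 normalized counts in 5 libraries, which kept 14558 and removed 2. A mean per group of genotype, treatment and time was fitted over 78 libraries, with a trend in the variance and Benjamini-Hochberg adjustment within each contrast. Each library's label ends in a number of its own, taken here as a mouse number, and each library was treated as 1 mouse. Correlations used 100000 permutations within groups. The procedure was run on simulated data for the wild-type 12 h comparison alone. Each gene was drawn independently there, so no simulated liver deviated in many genes together.

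The members and gene lists were chosen with earlier results of these data known. Named genes are all 9 members, up to 4 genes of each list with the smallest adjusted p in the contrast described, and Glul, Oat, Slc25a13 and Adamts12. A further gene of that rule is not reported here. Genes of like pattern are the 3 of highest r for each member. Alternatives were all 80 libraries, a pseudocount of 8, no filter, quantile normalization, a replicate block, fits of only the groups compared, removal of low-numbered mice, and leaving out each library. Python 3.11.15, pandas 2.3.3, numpy 2.4.6 and matplotlib 3.10.9 were used for tables and figures.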

Additional observations from a re-analysis of the deposited data

Results flagged for a closer look

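In 24 of 144 groups of 4 or 5 livers, 1 liver lay far from the others by Dixon's criterion on the normalized counts of a member. For normally distributed values about 1 in 20 groups would meet it, and whether the counts are so distributed was not tested. Members share livers, so the flagged groups are not independent. At 12 h knockout CCl4 replicate 1 was apart and highest for Otc (9415), Ass1 (79382), Asl (14847), Gls2 (16823.5), Hal (24205.5) and Slc25a15 (13069). Wild-type CCl4 replicate 2 of 12 h was apart and highest for Cps1 (128738), Otc (7312), Ass1 (64034), Nags (2813) and Gls2 (9448), and replicate 4 of that group for Arg1 (32134).

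At 24 h wild-type CCl4 replicate 4 was apart and highest for Gls2 (11129) and Hal (14635), and replicate 2 for Slc25a15 (9476). Knockout CCl4 replicate 5 of 24 h was lowest for Asl (2066). At 7 days knockout CCl4 replicate 3 was highest for Ass1 (209906) and Hal (37391).

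Among vehicle livers, knockout replicate 4 of 4 h was lowest for Otc (14683) and knockout replicate 3 of 7 days lowest for Nags (2156). Wild-type vehicle replicate 4 of 4 h was highest for Arg1 (97181), replicate 1 of 12 h for Otc (13951) and Gls2 (10276), and replicate 2 of 7 days for Arg1 (40918).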

How the results depend on the processing

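The lower direction of called members held under each alternative, except that Cps1 in knockout livers at 24 h was 0.00268 under quantile normalization, against -0.95; the cause was not tested. With all 80 libraries 1 member was called in knockout livers at 4 h (3 without the left-out pair), 0 at 12 h (5), and 1 for the effect at 24 h minus 12 h (0). Under quantile normalization 2 were called in knockout livers at 12 h, 4 in knockout and 5 in wild-type livers at 24 h (9 in each), and 1 for 24 h minus 12 h in wild type (0). Fits of only the groups compared gave 7 in knockout livers at 4 h, 3 at 12 h, and 7 between times in wild-type vehicle livers (4). Without wild-type mice numbered under 7000, 3 were called in wild type at 24 h (9), with 1 vehicle liver left and its spread assumed to be that of the other groups. Leaving out each library in turn gave 1 to 3 at 4 h, 3 to 8 at 12 h and 6 to 9 at 24 h in knockout livers, and 2 to 7, 7 to 8 and 9 in wild-type livers. It gave 0 at 7 days, 2 to 6 in knockout and 5 to 8 in wild type for the effect between times, and 0 to 1 in each for 24 h minus 12 h. Vehicle livers between times gave 4 to 6 in knockout and 3 to 4 in wild type. The comparisons of genotype gave 0 throughout. A pseudocount of 8 and no filter left 72 of 72 member effects on their side of the threshold. Replicate numbers, which the groups share, do not pair the samples: the median correlation of livers with the same replicate number in different groups was -0.0056, against 0.00098 for other numbers, and 124 of 570 pairs exceeded 0.1. The replicate block changed none of the 72 member effects and called 9 members at 24 h in each genotype, and 3 in place of 4 between times in wild-type vehicle livers. A count test with edgeR was planned and not run here, although the deposited values are whole multiples of each library's step. With 4 or 5 livers a group, genotype differences within the intervals given are not excluded.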

Other observations

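The pair of knockout libraries left out at 12 h had the following values, which enter no comparison. The library labelled CCl4 replicate 5 had 10696 normalized counts of Otc and 39176 of Glul. The library labelled vehicle replicate 1 had 1784 of Otc and 3668 of Glul.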
